A study of Mus musculus with 2 samples.

Results

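Ameloblast-lineage cluster 0 is the largest cluster of the enamel-forming epithelium in a single-cell RNA sequencing experiment on the mouse incisor, and it is made of cells with few transcripts. Its members were chosen by the depositors' own annotation, as the cells assigned to the ameloblast lineage and, within it, to cluster 0. There were 2178 such cells among 5284 cells of the lineage and 23528 cells in all. The mutant library held 1023 of them and the control library 1155. They derive from 2 mice at postnatal day 20, 1 with the genotype Memo1;K14CRE and 1 given only as control, whose hemimandibles supplied tissue around the cervical loop of the incisor. A separate 10x Genomics library of transcript 3′ ends was made for each mouse. K14-driven Cre acts in keratin 14-expressing epithelium, so that mesenchyme and blood cells of the mutant are not its target. Epithelium and mesenchyme were harvested together and digested with trypsin and dispase. No allele is named for the control, and with 1 mouse per genotype no variation between mice could be measured, so "higher" and "lower" below describe these 2 libraries and no p-value was computed. Intervals are 95% and cover counting error only.

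The mouse incisor grows throughout life from epithelial stem cells in the cervical loop, and the epithelium that makes enamel is layered. Ameloblasts secrete the matrix proteins amelogenin, ameloblastin and enamelin and later resorb them while mineral is added. Beside them lie the stratum intermedium, a cuboidal layer rich in alkaline phosphatase and in Shh, and the outer enamel epithelium and stellate reticulum, which in later stages form a papillary layer with many mitochondria. MEMO1 is a cytosolic protein known for its part in cell migration and receptor signalling.

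The cells of cluster 0 were shallow in both libraries. A UMI is a barcode that marks 1 captured transcript, and the median was 898 UMIs per cell in the mutant and 1092 in the control, against 6798 and 2643 over all cells of those libraries. The median number of genes was 505 in mutant and 579 in control cells, and the median mitochondrial share was 10.7% and 13.6%. Together they gave 1244106 mutant and 2056859 control counts. The 33 mutant and 113 control cells with at least 3000 UMIs held 15.8% and 40.4% of these counts. Lineage clusters 2 and 5, with which they shared genes described below, had medians of 14030 and 13732 UMIs in the mutant and 15855 and 17673 in the control. Cluster 0 held 44.4% of the mutant lineage cells (interval 42.4 to 46.5) and 38.7% of the control ones (37.0 to 40.5), and 7.40% of all mutant and 11.9% of all control cells. Because genes that mark the cluster themselves differed between the libraries, no direction is read from these shares.

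**Figure D1:**
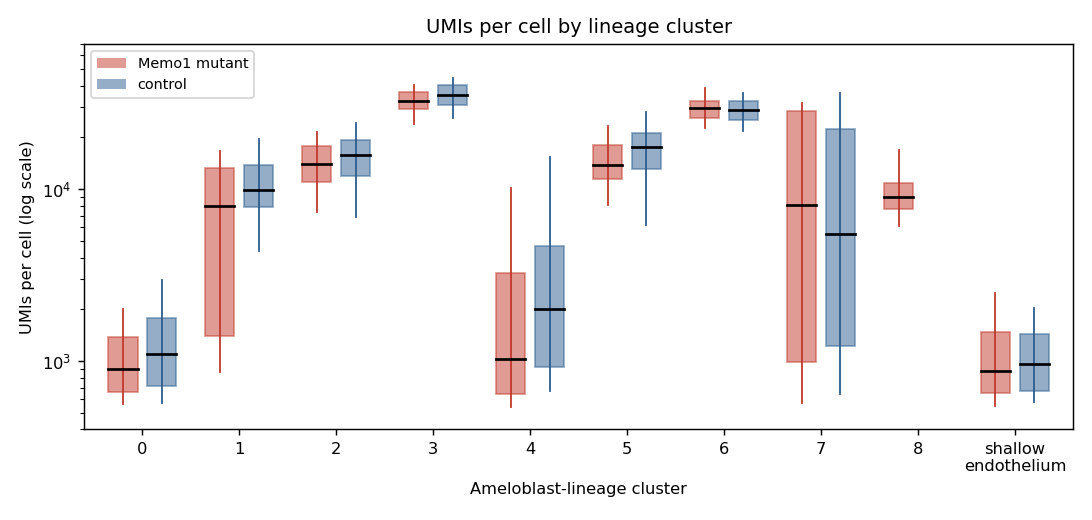
UMIs per cell (log scale) in the 9 clusters of the ameloblast lineage and, at the right, in the shallow endothelial cluster used for comparison, with the Memo1 mutant left of the control. Boxes span the 25th to 75th percentile, lines the 10th to 90th, and black bars are medians; cluster 0 has medians of 898 UMIs in the mutant and 1092 in the control, and cluster 8 has mutant cells only.

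When all cells had been clustered together, the depositors' all-cell cluster 2 took 1006 of the 1023 mutant and 1104 of the 1155 control cells of cluster 0. Of the other 17 mutant and 51 control cells, 5 and 32 were in all-cell cluster 16, and the rest were in further all-cell clusters. A total of 139 cell barcodes occurred in both libraries, and 15 mutant and 10 control cells of cluster 0 carried one; without them 223 genes were 2-fold higher and 160 lower, close to the counts given below. Libraries also differed outside the lineage, with Xist, which is transcribed from the inactive X chromosome, at 1467 CPM in the mutant and 0.445 CPM in the control. The labels give no sex, and any effect of sex cannot be told apart from that of genotype. CPM is the usual depth-scaled unit, here a gene's share of the summed counts of a group of cells in 1 library.

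Memo1 itself (chromosome 17, 74199036 to 74295521, minus strand, GRCm38) was detected at 20.1 CPM in mutant and 26.3 CPM in control cells of cluster 0, from 25 and 54 counts. These are 3′ end counts of the whole gene, so they do not show whether the deleted part was lost.

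The label of the cluster names Pmch and Gpx3, and the 6 genes given as its markers were Pmch, Gpx3, Sgk1, Cox7a1, Akr1c18 and Tpm2. Each was found in a minority of the cells of either library, and in a smaller share of mutant than of control cells. In cells this shallow a gene can be missed, so these shares do not give the share of cells that express it. Pmch, which encodes the precursor of melanin-concentrating hormone, was found in 17 of 1023 mutant cells and 85 of 1155 control cells. At an equal depth of 500 UMIs per cell, reached by random thinning, it was found in 0.880% of mutant cells (interval 0.403 to 1.66) and 3.81% of control cells (2.78 to 5.08). A cluster of shallow endothelial cells, all-cell cluster 9, served as the measure of free RNA, and its endothelial marker list summed to 5753 CPM in the mutant and 6517 CPM in the control. In these cells, which should lack Pmch, the thinned shares were 0.215% in the mutant and 0% in the control, with median depths of 871 and 966 UMIs.

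Akr1c18, the enzyme that inactivates progesterone, was found in 0 of 1023 mutant cells and in 41 control cells. The floor of 3 stands for 0.293% of the mutant cells, which is not an interval bound. Gpx3, the secreted glutathione peroxidase, was the most widespread of the 6 together with Tpm2, a tropomyosin. After thinning, Gpx3 was found in 9.09% of mutant and 16.0% of control cells, and Tpm2 in 8.60% and 15.8%. Shallow endothelium gave 3.87% and 2.87% for Gpx3 and 4.09% and 1.72% for Tpm2, in mutant and control cells. For Gpx3 a cluster of shallow macrophages, all-cell cluster 1, gave 9.64% in the mutant and 8.22% in the control. The share in mutant cells of cluster 0 was thus above that of endothelium but not above that of macrophages. By CPM, mutant Gpx3 was at 283 in cluster 0, 57.1 in endothelium and 203 in macrophages. Whether macrophages express Gpx3 themselves was not tested. Sgk1, a kinase induced by glucocorticoids and serum, was in 4.69% of mutant and 9.52% of control cells after thinning. It was in 8.39% of mutant and 14.9% of control endothelial cells, so its share does not set cluster 0 apart from endothelium. In mutant and control cells Sgk1 was at 113 and 405 CPM in cluster 0 and at 230 and 290 CPM in endothelium. In shallow macrophages it was lower, at 32.3 and 41.2 CPM. Cox7a1, a muscle-type subunit of cytochrome c oxidase, was in 1.37% of mutant and 6.41% of control cells and in at most 0.287% of endothelial cells of either library.

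In the control the labelled genes met in the same cells. Of the 85 control cells with Pmch, 60 had Gpx3, 58 Sgk1, 44 Cox7a1 and 19 Akr1c18, while of the 1070 without it 264, 190, 129 and 22 had these genes. The cells with Pmch were the deeper ones, with a median of 1745 against 1068 UMIs, which raises every share among them. CPM are scaled for depth, but the deepest cells weigh most in them. In control cells with Pmch Gpx3 stood at 1665 CPM against 453 CPM in those without, and Sgk1 at 1088 against 220 CPM. How far a few deep cells carry these differences was not tested. A single control cell held 111 of the 440 control counts of Pmch, and the fullest cell for Akr1c18 held 52 of its 169 counts.

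What most members shared was an epithelial keratin profile, with Krt14 found in 74.2% of mutant and 81.5% of control cells without thinning, and in 59.1% and 62.9% after it, against 3.44% and 6.02% of thinned endothelial cells. Krt14 stood at 2527 CPM in mutant and 2721 CPM in control cells, Krt5 at 1685 and 1935 CPM, and Krt17 at 5356 and 2942 CPM. In shallow endothelium of the same libraries these keratins reached 57.1 to 105 CPM in the mutant and 123 to 142 CPM in the control. Alpl, tissue-nonspecific alkaline phosphatase and a mark of the stratum intermedium, was at 1331 and 1054 CPM.

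Transcripts of the enamel matrix were no higher than in cells that do not make it. Amelx, amelogenin, gave 4621 CPM in mutant and 4495 CPM in control cells of cluster 0, against 4629 and 5882 CPM in shallow endothelium. Ambn, ameloblastin, gave 498 and 783 CPM against 577 and 1054 CPM there. In the other lineage cells Amelx made up 216150 CPM of the mutant and 153077 CPM of the control counts, so that every other gene is diluted there when clusters are set side by side.

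The genes that stood farthest above the other lineage cells, with 10 CPM added to both sides, were in part genes of other cell types. Of the first 15, 8 had more CPM outside the lineage than in cluster 0 in both libraries and are known from fibroblasts or macrophages, namely Col1a1, Col3a1, C1qa, C1qb, C1qc, Lyz2, Cd74 and Fcer1g. Col1a1 and Col3a1 were near their levels in shallow endothelium, while in the mutant C1qb was at 232 CPM against 98.97 CPM there, C1qa at 231 against 93.4 CPM and Lyz2 at 321 against 100.4 CPM. In the control C1qb was at 140 against 125 CPM, C1qa at 116 against 86.1 CPM and Lyz2 at 145 against 176 CPM. The 2 mutant cells with the most UMIs held 52.1% of the mutant counts of Lyz2. The remaining leaders included Gpx3, Gnrh1, Chchd10, Gpx2, Tpm2 and Tst. Gnrh1, which encodes the precursor of gonadotropin-releasing hormone, was the most abundant of them at 4828 CPM in the mutant and 1521 CPM in the control, against 59.9 and 36.6 CPM in shallow endothelium. Chchd10, a protein of the mitochondrial intermembrane space, was at 666 and 1373 CPM, and Tst, the mitochondrial enzyme rhodanese, at 469 and 418 CPM. These genes helped to form the cluster, so their excess over other clusters is a description only.

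**Figure D2:**
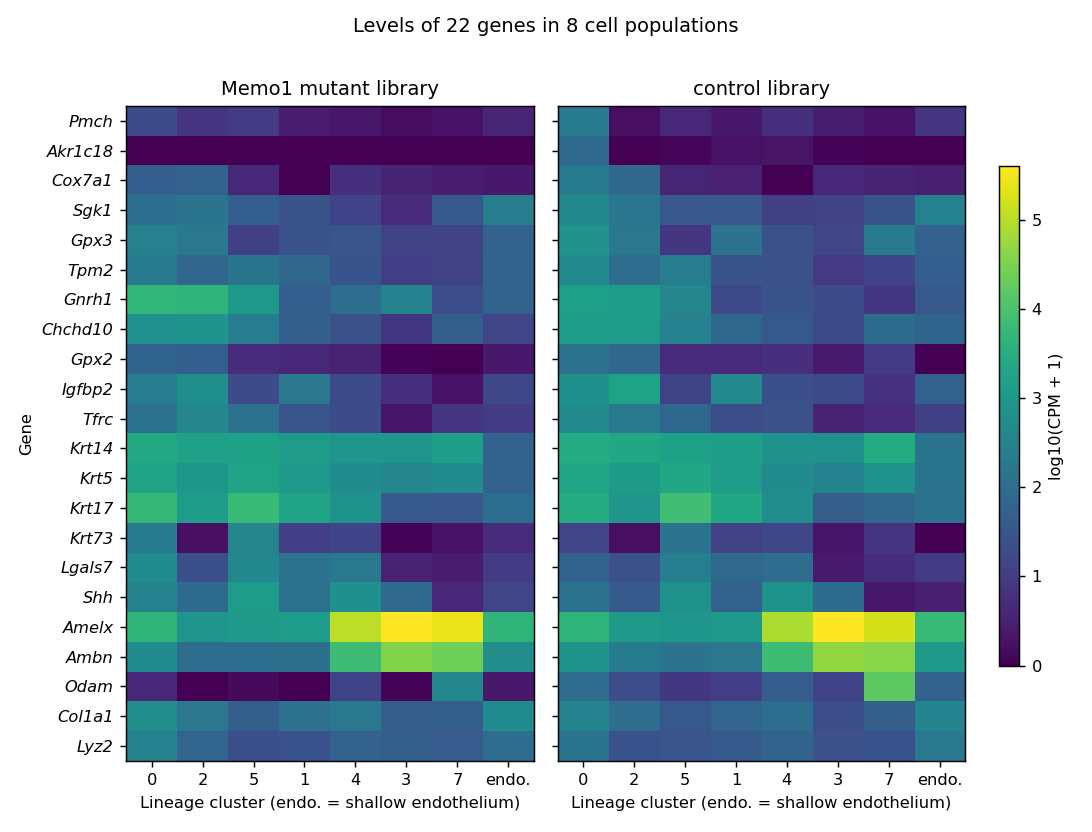
Levels of 22 genes, as the colour of log10(CPM + 1), in cluster 0, in 6 other lineage clusters and in shallow endothelium, with the mutant library at the left and the control library at the right. Cluster 0 shares Gnrh1 and Chchd10 with cluster 2 and Krt17 with cluster 5, Akr1c18 is at 0 CPM in mutant and 82.2 CPM in control cells of cluster 0, and Amelx in cluster 0 is as high as in endothelium.

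The cluster shared abundant genes with 2 deeper clusters. Chchd10 reached 788 CPM in mutant and 1164 CPM in control cells of cluster 2, and Gnrh1 4423 and 1196 CPM, close to cluster 0, whereas cluster 5 had Gnrh1 at 1005 and 383 CPM. Krt17 reached 5926 CPM in mutant and 7612 CPM in control cells of cluster 5, against 1260 and 832 CPM in cluster 2. Shh, a hedgehog ligand that is also in the preameloblast marker list used here, was at 1174 and 757 CPM in cluster 5 and at 312 and 122 CPM in cluster 0. Single cells were therefore scored for both profiles.

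Each cell was scored by which of 2 sets of 30 genes gave it more counts, 1 set higher in cluster 2 and 1 higher in cluster 5. The sets were chosen after the data had been seen, so they carry no test. Of the mutant cells of cluster 0, 44.0% had more cluster 2 counts (interval 40.9 to 47.1) and 53.4% more cluster 5 counts (50.3 to 56.5). Of the control cells 58.1% (55.2 to 61.0) and 38.6% (35.8 to 41.5) did so, and the rest were tied. The same scoring put 93.2% of mutant and 94.7% of control cells of cluster 2 itself on the cluster 2 side, and 97.7% and 97.6% of cluster 5 cells on the cluster 5 side. These same cells chose the sets, so such high shares were fixed in advance and check nothing in cluster 0. Their medians were 250 to 372 set counts per cell. Leaving out Gnrh1 and Krt17, the most abundant gene of each set, gave 41.0% of mutant and 61.0% of control cells on the cluster 2 side. Cells of cluster 0 had a median of 19 counts from both sets together in each library, so single assignments are uncertain. More than 2 counts of each set were found in 62.9% of mutant and 66.7% of control cells, so most held genes of both. The same was true of 99.1% to 100% of the cells of clusters 2 and 5 in either library. Holding both therefore does not tell mixed cells from others. The scoring also gave sides to shallow endothelium, with 47.1% of mutant and 47.3% of control cells on the cluster 2 side and 21.5% and 23.2% on the cluster 5 side.

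Both sides were as shallow as the cluster as a whole. Cells on the cluster 2 side had medians of 861 UMIs in the mutant and 1101 in the control, and those on the cluster 5 side 930 and 1140. The 100 mutant cells with Krt73 and the 21 such control cells mostly had the keratin of cluster 5, since 96 and 20 of them had Krt17 and 25 and 1 had Gnrh1. Among the genes of the cluster 2 set, 1 was at least 2-fold higher and 8 were at least 2-fold lower in mutant cluster 0 cells than in control ones. Of the 30 genes of the cluster 5 set, 6 were higher and 1 was lower. Over all genes compared between the libraries, 3.64% were higher and 2.58% lower.

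Between the libraries, 6159 genes had at least 50 counts in cluster 0 and were compared. At 2-fold or more, 224 were higher in the mutant (3.64%) and 159 lower (2.58%), 6.22% in all, and the median log2 ratio of mutant over control was 0.02. Ratios under 1 were found for 48.0% of the compared genes, and the counts for gene lists below stand beside these shares. With TMM scaling the split was 175 higher and 199 lower, and with DESeq2 size factors 170 and 213, so which direction holds more genes depends on scaling. These scalings put the median log2 ratio of all compared genes at -0.08 and -0.09. Counting only the cells of all-cell cluster 2 left 133 higher and 81 lower genes. Of the 6 labelled markers, 6 were lower in the mutant, which cannot be read against the 2.58%, because genes of the clustered cells chose them.

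**Figure D3:**
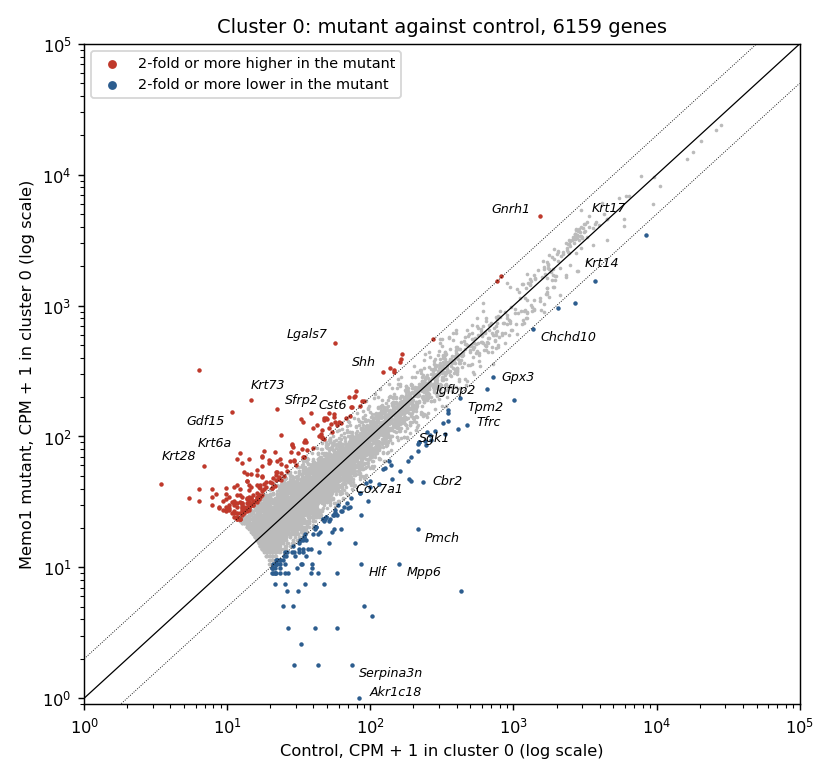
Levels in cluster 0 of the 6159 compared genes, mutant on the vertical and control on the horizontal axis, as CPM + 1 on log scales. The solid line marks equal levels and dotted lines 2-fold; 224 genes lie above the upper dotted line (red) and 159 below the lower one (blue), with Akr1c18 at 0 CPM in the mutant.

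The genes that were lowest in the mutant included Pmch, Akr1c18 and several genes found more often in control cells with Pmch than in those without. Pmch (chromosome 10, 88091072 to 88092375, plus strand, GRCm38) stood at 18.5 CPM in mutant and 214 CPM in control cells, 11.6-fold lower in the mutant (interval 7.61 to 18.4). Outside the lineage it was at 17.3 CPM in the mutant and 20.8 CPM in the control. Akr1c18 (chromosome 13, 4132615 to 4150654, minus strand, GRCm38) gave 0 counts in the mutant and 169 in the control, 0 and 82.2 CPM, and was at least 34.1-fold lower when 3 counts were taken as the floor of the mutant sum. The 95% counting interval of that difference reaches down to 27.4-fold.

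Serpina3n, a secreted inhibitor of serine proteases, had 1 count in the mutant and 151 in the control, and its ratio of mutant over control was 0.0110 (interval 0.000275 to 0.0619). The control counts of Serpina3n came from 54 cells, of which the fullest held 20. Mpp6, a membrane scaffold protein, had 9.65 CPM in mutant and 158 CPM in control cells. Hlf, a transcription factor of the PAR bZIP family, had 9.65 and 85.1 CPM. Mpp6 was thereby 16.3-fold lower in the mutant (9.22 to 31.9) and Hlf 8.82-fold lower (4.92 to 17.4). Of the 85 control cells with Pmch, 29 had Mpp6, 24 Hlf and 18 Serpina3n, against 94, 35 and 36 of the 1070 without Pmch. The cells with Pmch were deeper, which raises these shares as well. Serpina3n did not go with Akr1c18 in the same way, for it was found in 1 of the 41 control cells with Akr1c18 (2.44%) and in 4.76% of those without.

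Cbr2, a carbonyl reductase, was at 44.2 CPM in mutant and 233 CPM in control cells, and Fst, the activin-binding protein follistatin, at 8.04 and 57.4 CPM. Tfrc, the transferrin receptor, was at 122 and 474 CPM, 3.88-fold lower in the mutant (3.26 to 4.63). For Tfrc the ratio of mutant over control was 0.258 over all cells, 0.530 once the deepest 5% of cells were left out, and 0.626 over the cells of all-cell cluster 2. Among the other labelled genes Cox7a1 was at 45.0 and 191 CPM, Sgk1 at 113 and 405 CPM, Gpx3 at 283 and 713 CPM and Tpm2 at 196 and 421 CPM, in mutant and control cells. Without the cells outside all-cell cluster 2 the ratio of mutant over control was 0.163 for Pmch, 0.274 for Cox7a1, 0.413 for Sgk1, 0.485 for Gpx3 and 0.519 for Tpm2.

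Pmch, Akr1c18 and Serpina3n were also compared within each side of the cluster. Among cells on the cluster 2 side, Pmch was at 16.2 CPM in mutant and 320 CPM in control cells. Among cells on the cluster 5 side it was at 16.6 CPM in the mutant and 25.1 CPM in the control, a ratio of 0.663 (interval 0.283 to 1.48), so no difference was detectable there. Akr1c18 was at 0 and 122 CPM and Serpina3n at 1.80 and 96.4 CPM on the cluster 2 side, and they were at 0 and 9.75 CPM and at 0 and 34.8 CPM on the cluster 5 side. In the other lineage cells Pmch was at 2.13 CPM in the mutant and 1.62 CPM in the control, from 49 counts each. Its ratio there was 1.32 (interval 0.867 to 2.00), so no direction was detectable. Tfrc was at 65.8 and 49.3 CPM in those cells, which is not the direction seen in cluster 0. For neither gene was the difference between the populations tested. Gpx3 was at 41.5 and 77.7 CPM there and Chchd10 at 132 and 277 CPM. The other lineage cells were not the same mix in both libraries, since cluster 1 gave 75 of 1280 in the mutant and 495 of 1826 in the control. What this mix adds to their ratios was not tested.

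Gm10709, Odam and Amtn also ranked among the lowest, but they differed across the whole library. Gm10709 was at 5.63 CPM in mutant and 427 CPM in control cells of cluster 0 and at 1.22 and 375 CPM outside the lineage. Odam and Amtn, proteins of maturation-stage ameloblasts, were at 3.22 and 101 CPM and at 4.02 and 89.5 CPM in cluster 0, against 1.39 and 58.1 CPM and 1.39 and 112 CPM in shallow endothelium. Gm12840, at 14.5 and 77.3 CPM, completed the 12 lowest.

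Krt73, Krt28, Krt6a, Krt42 and Lgals7 were among the genes highest in the mutant. The keratin list used here did not hold Krt73, Krt28 and Krt42, whose ratios were 13.8, 10.1 and 4.43, so it does not speak for them. Of its 8 compared members 6 had ratios under 1, with a median log2 ratio of -0.21. Only 1 of the 8, Krt6a, was 2-fold higher, against 3.64% of all genes. Krt73 (chromosome 15, 101793308 to 101802346, minus strand, GRCm38), a type II keratin known from the inner root sheath, stood at 188 CPM in mutant and 13.6 CPM in control cells, 13.8-fold higher (interval 9.31 to 21.2). Lgals7 (chromosome 7, 28863853 to 28866284, plus strand, GRCm38), the epithelial lectin galectin-7, stood at 514 and 55.4 CPM, 9.28-fold higher (7.59 to 11.4). After thinning, Lgals7 was found in 16.3% of mutant cells (interval 14.1 to 18.7) and 2.60% of control cells (1.76 to 3.69), and Krt73 in 5.47% and 0.779%.

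Krt28, a type I keratin of the inner root sheath, was at 58.7 CPM in mutant and 5.83 CPM in control cells, Krt6a, a keratin of stressed or wounded epithelium, at 73.9 and 11.2 CPM, and Krt42 at 101 and 22.9 CPM. A single mutant cell held 28 of the 126 mutant counts of Krt42. Cst6, the protease inhibitor cystatin E/M, was at 151 and 37.4 CPM and was higher in the other lineage cells too, at 194 and 17.7 CPM. The keratin genes have close relatives, and reads shared between them could have been split by the counting.

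Among cells on the cluster 5 side alone, Krt28 was at 109 CPM in mutant and 13.9 CPM in control cells, Krt6a at 115 and 23.7 CPM, and Cst6 at 99.8 and 16.7 CPM. Krt73 and Lgals7 belong to the gene set that assigned cells to that side, so their levels there, 352 and 36.2 CPM and 909 and 146 CPM in mutant and control cells, are partly set by that choice. In the deep cells of cluster 5 Krt73 was at 348 CPM in the mutant and 133 CPM in the control and Lgals7 at 419 and 257 CPM, closer together than in cluster 0, while Krt6a was at 40.1 and 6.54 CPM. Krt17 was at 5356 CPM in mutant and 2942 CPM in control cluster 0, a ratio of 1.82, and ran the other way in cluster 5 at 5926 and 7612 CPM. Whether the ratios of cluster 0 and cluster 5 differ beyond variation between mice was not tested.

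Gnrh1 (chromosome 14, 67745181 to 67749439, plus strand, GRCm38) was 3.17-fold higher in mutant cluster 0 (3.04 to 3.32), and was higher in the mutant in clusters 2 and 5 as well. It was found after thinning in 45.4% of mutant and 25.5% of control cells of cluster 0, against 3.87% and 2.29% in shallow endothelium. Of the 540 mutant cells with Gnrh1, 13 had Pmch and 124 had Gpx3, and of the 405 such control cells 37 and 168 did.

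**Figure D4:**
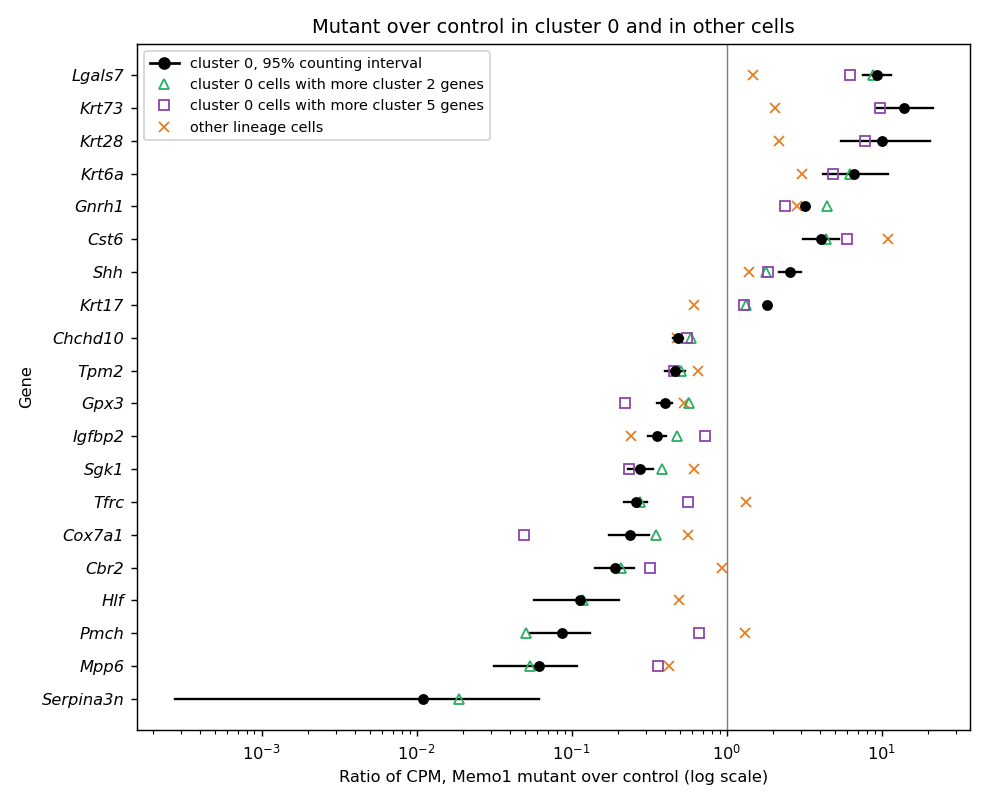
Ratio of CPM of mutant over control (log scale) for 20 genes, in all cells of cluster 0 (black, with 95% counting intervals), in its cells on the cluster 2 side (triangles) and on the cluster 5 side (squares), and in the other lineage cells (crosses). Points with fewer than 20 counts (50 for crosses) or a mutant count of 0 are left out. Krt73 is 13.8-fold higher in mutant cluster 0, while Pmch has a ratio of 0.086 there. In the other lineage cells Pmch has a ratio of 1.32, with a counting interval, not drawn, of 0.867 to 2.00.

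In another group of the highest genes 2 cells held many of the counts. Gdf15, a stress-induced cytokine, was at 152 CPM in mutant and 9.72 CPM in control cells, Cd83 at 65.9 and 10.7 CPM, Cd14 at 61.9 and 11.7 CPM, and the chemokine Cxcl2 at 134 and 31.6 CPM. The 2 deepest mutant cells, with 35980 and 25973 UMIs, carried 75.1% of the mutant counts of Gdf15, 73.2% of those of Cd83, 72.7% of those of Cd14 and 32.3% of those of Cxcl2. These cells also held 208 counts of Lyz2, the lysozyme of macrophages, beside 974 of Gnrh1 and 227 of Krt14, and the depositors had placed both in all-cell cluster 16. Without them the ratio of mutant over control was 4.09 for Gdf15, 1.74 for Cd83, 1.52 for Cd14 and 3.02 for Cxcl2. Doublets were not called, and whether these are 2 cells in 1 droplet was not tested.

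The immediate early genes, which cells transcribe within minutes of a stimulus and also during dissociation, showed the same dependence. Of 15 compared members 15 had ratios above 1, 8 of them 2-fold or more against 3.64% of all genes, with a median log2 ratio of 1.03 against 0.02. Egr1 was at 150 CPM in mutant and 50.6 CPM in control cells, Zfp36 at 121 and 41.3 CPM, and Fos at 272 and 156 CPM. Without the 2 deepest mutant cells 0 members reached 2-fold and the median was 0.49, and Fos had a ratio of 1.01. The macrophage marker list summed to 1268 CPM in the mutant, 700 CPM without those 2 cells, and 648 CPM in the control.

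Transcripts of other cell types were present in both libraries and have to be kept in view beside these results. The fibroblast list summed to 1809 CPM in mutant and 859 CPM in control cells, and to 1844 and 932 CPM in shallow endothelium. In cluster 0 ratios were above 1 for 9 of 9 compared members and 2-fold or more for 4, against 3.64% of all genes. Col1a1 was at 551 CPM in mutant and 313 CPM in control cells of cluster 0 and at 493 and 340 CPM in endothelium. Sfrp2, a secreted Wnt modulator of mesenchyme, was at 160 and 21.4 CPM, and at 131 and 19.4 CPM in endothelium. Pcp4, at 65.9 and 13.1 CPM in cluster 0, was at 44.6 and 40.9 CPM in endothelium. The 4 haemoglobin genes summed to 6268 CPM in mutant and 15846 CPM in control cells, and to 379 and 27788 CPM in endothelium. The endothelial list summed to 165 and 77.8 CPM. The part of such RNA in the differences between libraries was not tested.

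Most genes of energy metabolism had ratios of mutant over control under 1, and few passed 2-fold. Of 22 nuclear genes of the respiratory chain 21 had ratios under 1, against 48.0% of all genes compared, with a median log2 ratio of -0.48 against 0.02. Only Cox7a1 among them passed 2-fold, and Cox4i2, a lung-type subunit of cytochrome c oxidase, was the 1 member with a ratio above 1, at 621 CPM in mutant and 393 CPM in control cells. Cox6c was at 1847 and 2836 CPM, Cox8a at 2190 and 3243 CPM, and Uqcrq, of complex III, at 1021 and 1638 CPM. The 22 genes together gave 23795 CPM in mutant and 32765 CPM in control cells of cluster 0, 24145 and 27049 CPM in cluster 2, and 8861 and 8702 CPM in shallow endothelium.

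The 13 genes of the mitochondrial genome had 13 ratios under 1, a median log2 ratio of -0.40 and a sum of 102024 CPM in the mutant and 127664 CPM in the control. In cells with at most 10% mitochondrial counts the median was 0.10, but that choice of cells limits the same counts that are compared. Of 16 glycolytic and hypoxia-induced genes 14 had ratios under 1, 1 of them by 2-fold or more, with a median log2 ratio of -0.60. Aldoa, aldolase, was at 917 CPM in mutant and 1551 CPM in control cells, Tpi1 at 359 and 718 CPM, and Gapdh at 1826 and 2780 CPM. Under the 15 alternative settings the median stayed between -0.80 and -0.41 for the glycolytic list and between -0.59 and -0.25 for the respiratory chain.

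Of 7 genes of sodium transport 6 had ratios under 1, with a median log2 ratio of -0.39. Atp1b1, a beta subunit of the sodium pump, was at 437 CPM in mutant and 570 CPM in control cells.

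Cytoplasmic ribosomal proteins ran in the other direction. Of 90 compared genes 85 had ratios above 1, with a median log2 ratio of 0.26 and 1 gene past 2-fold, and their sum was 242180 CPM in the mutant and 201263 CPM in the control. In cluster 5 and in the other lineage cells this sum was the lower one in the mutant, at 207524 and 148252 CPM, against 274090 and 182403 CPM in the control. In shallow endothelium it was 232097 CPM in the mutant and 203311 CPM in the control, the same order as in cluster 0.

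**Figure D5:**
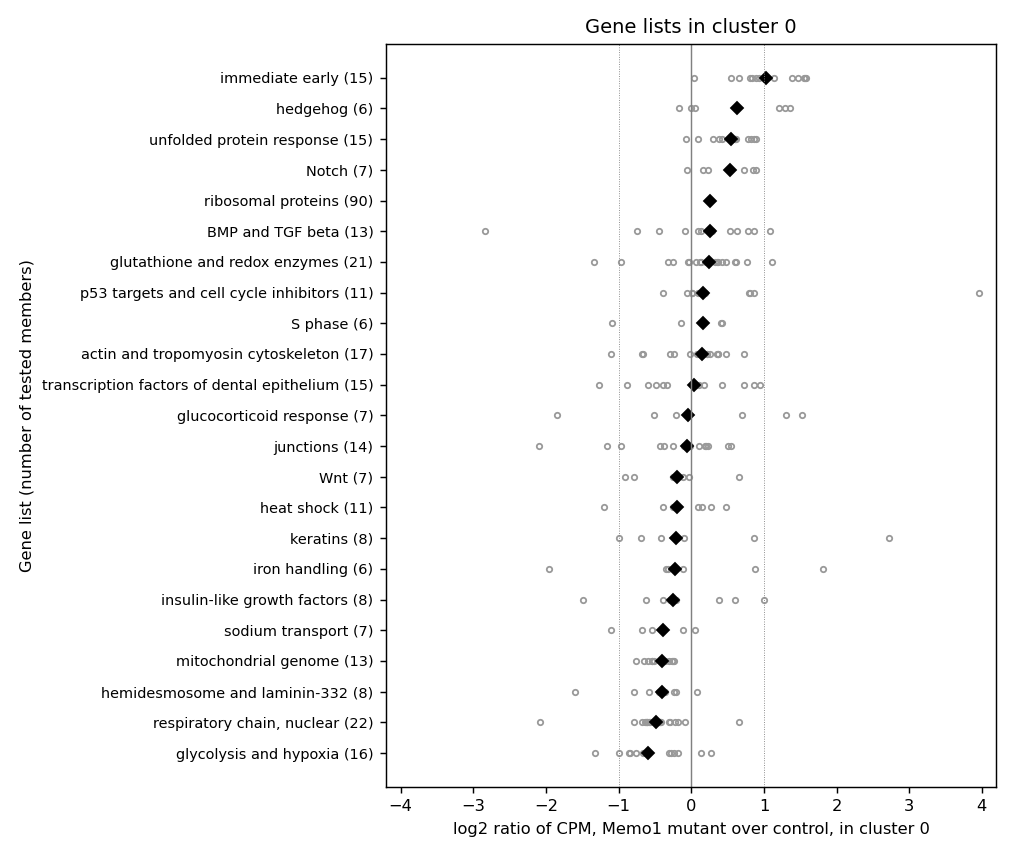
Log2 ratio of CPM of mutant over control in cluster 0 for the members (circles) and the median (diamonds) of each pathway or function list with at least 5 compared members, with the number compared in brackets. Members are drawn for all lists but the ribosomal proteins; dotted lines mark 2-fold, and medians run from -0.60 for glycolysis and hypoxia to 1.03 for immediate early genes.

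Hedgehog signalling genes were higher in part. Shh was at 312 CPM in mutant and 122 CPM in control cells, 2.57-fold higher (2.18 to 3.02), and its receptor and target Ptch1 was at 166 and 72.0 CPM. Of 6 compared members 3 passed 2-fold, these among them, against 3.64% of all genes, while the transducer Smo, at 37.8 and 37.9 CPM, and the target Gli1, at 21.7 and 20.9 CPM, differed little. After thinning, and among cells on the cluster 5 side, 3 members could be compared and 0 passed 2-fold. Shh belongs to the gene set that assigned cells to that side, where it was at 538 CPM in mutant and 290 CPM in control cells.

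Notch receptors, ligands and targets gave 6 of 7 ratios above 1 and a median log2 ratio of 0.53, with 0 members past 2-fold. For the unfolded protein response 14 of 15 ratios were above 1 and the median was 0.54, again with 0 past 2-fold. Hspa5, the main chaperone of the endoplasmic reticulum, was at 557 CPM in mutant and 306 CPM in control cells. In the BMP and TGF beta list Bambi, a decoy receptor, was at 308 and 145 CPM and Fst at 8.04 and 57.4 CPM. They were the 2 of 13 members past 2-fold, against 6.22% of all genes.

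Among genes that hold epithelial cells together and to their base, few passed 2-fold. The median log2 ratio was -0.06 for junction genes and -0.40 for hemidesmosome and laminin-332 genes. Of 14 junction genes 2 were lower by 2-fold or more, against 2.58% of all genes. They were Dsc2, a desmocollin, at 8.84 CPM in mutant and 37.9 CPM in control cells and Dsg2, a desmoglein, at 24.9 and 55.9 CPM. Cdh1, E-cadherin, was at 99.7 and 101 CPM. Of 8 hemidesmosome and laminin-332 genes 7 had ratios under 1, and Itga6, an integrin of basal cells, was at 31.4 and 95.3 CPM. Trp63, which maintains basal epithelium, was at 90.0 and 218 CPM. It was the 1 of 15 dental epithelial transcription factors past 2-fold, against 6.22% of all genes, and the median log2 ratio of that list was 0.03.

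Glutathione and redox enzymes did not move together. Gpx3 was lower, Gpx2 was at 63.5 CPM in mutant and 124 CPM in control cells, Hmox1, haem oxygenase, was higher at 98.1 and 45.2 CPM, and 15 of 21 members had ratios above 1. In the glucocorticoid list Sgk1 was lower but Ddit4 and Nfkbia were higher, at 112 and 45.2 CPM and at 200 and 69.5 CPM, and Tsc22d3, another induced gene, was at 91.6 and 131 CPM. Single mutant cells held 33 of the 122 mutant counts of Hmox1 and 58 of the 249 of Nfkbia. Igfbp2, an insulin-like growth factor binding protein abundant in cluster 2, was at 231 CPM in mutant and 651 CPM in control cells of cluster 0, and at 621 and 1744 CPM in cluster 2.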

How the data were processed

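The deposited files hold raw UMI counts per gene and cell, and the depositors' cluster numbers and lineage assignment of each cell. Reads were aligned to mm10 and counted with Cell Ranger (version not given in the sources used here) and clustered with Seurat 3, per the submitters' processing notes. How the lineage was picked and which cells were filtered is not given in the sources used here, doublets were not called, and plotting coordinates were not used. Gene positions are from GENCODE for GRCm38.

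For each population and library, the counts of its cells were added up and scaled by their total to CPM. Genes with at least 50 counts in both libraries together were compared, and a ratio of 2 or more either way was counted as higher or lower. Ratio intervals are exact conditional Poisson intervals and share intervals are Clopper-Pearson, both at 95%; molecules were counted by UMI, and these intervals leave out variation between mice. A sum of 0 was set to a floor of 3 counts for a bound. Shares of cells were compared after thinning every cell to 500 UMIs, which left out no cell of cluster 0. Leading genes were ranked by the smaller of both libraries' folds over the other lineage cells after adding 10 CPM.

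Named genes were the 6 labelled markers, Memo1, the first 15 leading genes, the first 12 genes in each direction that reached 50 CPM in 1 library or more, ordered by the nearer bound of the interval, and up to 6 members of each gene list. Members and lists were chosen with earlier results of these data known. With 1 library per group no count model was tested; edgeR 4.0.16 and DESeq2 1.42.0 (R 4.3.3) gave only alternative scaling factors. Other steps ran in Python 3.11.15 with scipy 1.17.1, pandas 2.3.3 and numpy 2.4.6, with plots from matplotlib 3.10.9, and were tested on simulated data. Some genes are not reported here.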

Additional observations from a re-analysis of the deposited data

Results flagged for a closer look

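For 8 genes the ratio of mutant over control lay at 2-fold or more on opposite sides of 1 in cluster 0 and in the other cells of the lineage, and the difference between these populations was not tested. The other lineage cells differed in make-up between libraries. Cluster 1 gave 75 of the 1280 mutant and 495 of the 1826 control ones, and cluster 8 gave 91 and 0. The part of this mix in the ratios was not tested. Atf3, a stress-induced transcription factor, had a ratio of 2.61 in cluster 0 and 0.194 in the other lineage cells. Ppp1r15a had ratios of 2.06 and 0.439, and Klf6 of 2.04 and 0.499. The muscle-type genes Tagln and Acta2 had ratios of 3.91 and 3.63 in cluster 0 and of 0.282 and 0.476 in the other lineage cells. Csrp2 had ratios of 2.08 and 0.470, and the keratin Krt42 of 4.43 and 0.390. Ttr, transthyretin, had ratios of 3.65 and 0.490, and 1 mutant cell held 85.7% of its mutant counts in cluster 0. Single mutant cells also held 47.3% of the mutant counts of Atf3 and 24.3% of those of Klf6.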

How the results depend on the processing

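No paired analysis was possible because each group had 1 library, and for the same reason no replicate could be left out. Of 1284 values of 99 genes under other settings, 859 stayed within their counting interval, 411 moved and 14 changed direction, and of 472 list medians 407 stayed within 0.25, 63 moved and 2 changed direction. Changes of direction are counted only for genes and medians at 2-fold or more; smaller ones count as moved, such as the mitochondrial genome's median of 0.10 and the ratios of 0.593 for C1qa, 0.754 for C1qb and 0.753 for Fcer1g on the cluster 5 side. The counts of higher and lower genes were 2568 and 1794 of 14965 with no filter, 591 and 329 of 9162 at 20 counts, 112 and 81 of 5069 without the 5% deepest cells, 54 and 53 of 2684 after thinning, and 699 and 563 at 1.5-fold, and 106 and 121 of 3717 in cells with at most 10% mitochondrial counts. Chosen after seeing the data, cells of all-cell cluster 2 gave 133 and 81 of 5399, and cells on the cluster 5 side 76 and 64 of 3144. Fewer genes were compared where cells were left out. Cells with at least 1000 UMIs put cluster 0 at 27.9% of mutant and 27.3% of control lineage cells and 4.09% and 9.28% of all cells; cells with at most 10% mitochondrial counts put it at 35.6% and 26.0%, and 5.77% and 8.66%. Of the 15 leading genes 9 were kept by fold over the highest other cluster, 8 after thinning and 8 with 50 CPM added. Without thinning, Pmch was found in 7.36% and Akr1c18 in 3.55% of control cells, Gpx3 in 14.9% of mutant and 28.1% of control cells, Sgk1 in 9.38% and 21.5%, Cox7a1 in 4.11% and 14.98%, and Tpm2 in 18.4% and 34.2%. The cause of the following changes of direction was not tested. The median log2 ratio of peptide hormones became 0.31 with no filter and 0.11 at 20 counts. At most 10% mitochondrial counts gave ratios of 0.822 for Cd14, 0.822 for Atf3, 1.04 for Neat1 and 0.617 for Ttr. Neat1 had 1.12 without the deepest cells and 1.02 after thinning. Ttr had 0.504 without the deepest cells, 0.596 as a mean over cells, 0.549 without the 2 deepest mutant cells and 0.449 in all-cell cluster 2. Krt42 had 0.392 on the cluster 2 side; Lyz2 had 0.561, Apoe 0.749 and Csrp2 0.875 on the cluster 5 side.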
